A study of Mus musculus with 16 samples.

Results

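The regions described here were 811 stretches of open chromatin away from gene starts that carried the M-CAT motif CATTCCT, the classic recognition sequence of TEAD transcription factors, in mouse C2C12 myoblasts. They were 3.09% of the 26213 union regions found in the study and 5.11% of the 15878 distal ones. A union region is a stretch covered by overlapping peaks from the 14 libraries compared, with each library's list held to its 14710 strongest peaks, and its summit is that of its strongest peak. A region was kept when its summit lay more than 1 kb from every annotated transcript start, when CATTCCT occurred on either strand within 100 bp of the summit, and when that window held neither CAGCTG, an E-box bound by MyoD1, nor TGACTCA or TGAGTCA, the site of the AP-1 factors FOS and JUN. Peak strength decided which peaks entered the union and where each summit lay. It was not scaled between libraries, so libraries with stronger peaks could set more of the summits. Among union regions the choice then used sequence and position alone, with no comparison of groups.

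TEAD1 to TEAD4 bind DNA but activate transcription through partners, chiefly YAP and TAZ. The Hippo kinases LATS1 and LATS2 phosphorylate YAP and TAZ and keep them out of the nucleus, and dense culture, cell contact and low serum all favour that state. In muscle the M-CAT element was first known from promoters of contractile genes such as that of cardiac troponin T, and YAP with TEAD is known to keep myoblasts proliferating.

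Open chromatin was mapped by ATAC-seq, which uses a transposase to tag accessible DNA with adapters. The cells, C2C12 iMyoD1, are a population of C2C12 myoblasts carrying a Halo-tagged MyoD1 transgene driven by the doxycycline-inducible TRE3GS promoter, beside the cells' own Myod1 gene, and not every nucleus expresses the transgene after induction. All 4 groups carried the transgene: GM no dox and GM +dox stayed in growth medium, seeded at 75000 cells per well, and DM no dox and DM +dox had serum withdrawn for 24 h after seeding at 300000 cells per well, with doxycycline or vehicle given for 24 h. Each group had 4 biological replicates, of which replicate 1 of both DM groups is left out in the study's methods and here, leaving 4, 4, 3 and 3 libraries. Medium and seeding density changed together and cannot be told apart in any comparison of DM with GM.

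Genome-wide background coverage, recovered from the deposited fold enrichments and p-values, ranged from 0.339 to 1.13 fragments per base over the 14 libraries, and the deposited lists held 14710 to 58587 peaks. Because every list was cut to the same length, the weakest peak retained had a −log10 p of 3.94 in GM no dox replicate 1 and 54.6 in DM +dox replicate 2, so a region without a peak in a cut list may still have had a deposited peak below the cut, and the same −log10 p can pass in one library and not in another. Summits were set on that same scale. The weakest retained −log10 p was 33.7 to 54.6 in DM +dox and 11.7 to 32.3 in DM no dox. It was 22.1 to 41.4 in GM +dox and 3.94 to 36.5 in GM no dox. How many summits came from each group was not counted. The cut lists held 6499 to 8455 distal peaks each. Of 7 myoblast marker genes, 3 had a deposited peak within 1 kb of a start in all 14 libraries and the lowest had one in 6. Of 9 marker genes of endothelial, blood, epithelial, glial and neuronal cells, 7 had none in any library, Pecam1 had one in 8 and Snap25 in 2. No pair of lists was identical, and the highest Jaccard index between kept libraries was 0.760.

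The motif itself is best seen in place. In the stretches below, taken from GRCm38 and written 5′ to 3′ along the strand that reads CATTCCT, the capitals mark the heptamer nearest the summit. The first 4 regions held a peak in all 14 libraries.

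Amotl2, chr9:102779630-102779660, plus strand: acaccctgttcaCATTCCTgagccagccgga
Myof, chr19:38025335-38025365, minus strand: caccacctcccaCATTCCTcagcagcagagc
Utrn, chr10:12694933-12694963, minus strand: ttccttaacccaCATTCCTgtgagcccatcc
Vdr, chr15:97914466-97914496, minus strand: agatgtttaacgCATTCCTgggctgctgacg

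The next 6 come from regions whose peaks came and went between libraries or groups and which are described further on.

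Tnnt2, chr1:135862129-135862159, minus strand: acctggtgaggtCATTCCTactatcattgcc
Des, chr1:75347575-75347605, minus strand: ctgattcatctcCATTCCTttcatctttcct
Myod1, chr7:46337685-46337715, plus strand: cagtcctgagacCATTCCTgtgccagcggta
Popdc3, chr10:45262362-45262392, minus strand: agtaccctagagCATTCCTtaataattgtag
Amotl1, chr9:14641949-14641979, minus strand: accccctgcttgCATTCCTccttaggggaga
Ostf1, chr19:18599110-18599140, plus strand: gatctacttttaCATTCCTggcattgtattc

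M-CAT was more frequent in distal regions than at promoters. A copy was found inside the 100 bp flanks in 1594 of the 15878 distal regions (10.04%) and in 344 of the 10335 promoter regions (3.33%). Of the 1594, 439 were set aside for an AP-1 site, 231 for CAGCTG and 113 for both, which left the 811. AP-1 sites were present in 34.6% of distal regions with M-CAT and in 43.7% of those without, and CAGCTG in 21.6% and 23.0%. These shares are descriptions over regions, which are not independent replicates.

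The heptamer was also concentrated at the summit. Across distal regions its density was 0.652 copies per kb within 25 bp of the summit and 0.223 copies per kb at 401 to 500 bp, a ratio of 2.92. The same ratio was 2.71 for CAGCTG and 14.8 for the AP-1 site. At promoter regions M-CAT was nearly flat, at 0.195 against 0.158 copies per kb (ratio 1.24).

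**Figure D1:**
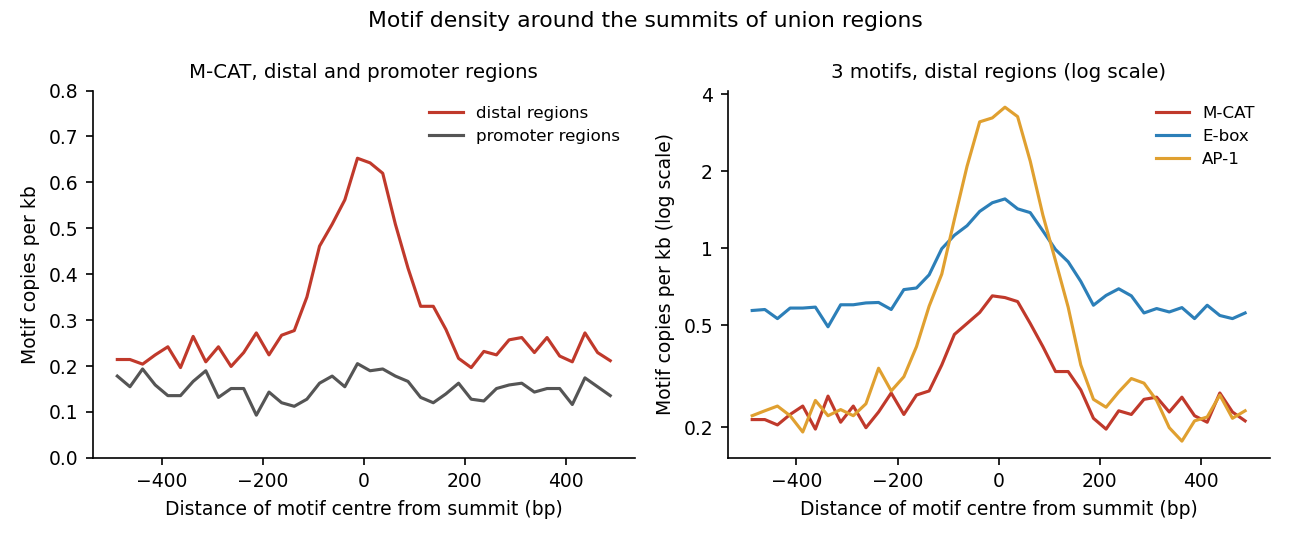
Motif copies per kb (vertical axes, linear at left and log scale at right) against the distance of the motif's centre from the region's summit in bp. The left panel sets M-CAT in distal and promoter regions side by side, and the right panel sets M-CAT, E-box and AP-1 in distal regions. M-CAT reaches 0.652 copies per kb within 25 bp of distal summits and 0.195 at promoters, while AP-1 has the sharper peak.

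Most members carried 1 copy of the motif (755 of 811), 56 carried 2 or more, and 3 was the most. The nearest copy lay a median of 39 bp from the summit. Among members with 1 copy, 33.6% had it centred within 25 bp, where 26.2% of the positions allowed by the window lie. Only 40 nearest copies (4.93%) fell in soft-masked repeat sequence. The base just before the heptamer was A in 40.6% of members and C in 13.7%, against 25.5% and 29.7% of 2195 copies found 200 to 500 bp from distal summits. The base just after it was G in 38.1% and 30.2%. The leading A is shared by 3 of the 4 stretches shown first, those of Amotl2, Myof and Utrn.

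Copies could lie close together. The window of Amotl2 is shown because it held 2 copies and a peak in every library, with both copies in capitals on the plus strand of GRCm38.

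Amotl2 window, chr9:102779563-102779763: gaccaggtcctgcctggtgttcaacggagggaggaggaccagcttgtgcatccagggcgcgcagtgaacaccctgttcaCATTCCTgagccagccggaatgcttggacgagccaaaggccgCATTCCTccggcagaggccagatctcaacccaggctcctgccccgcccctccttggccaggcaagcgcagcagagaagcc

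The copies in Amotl2 point the same way. Members with 3 copies were no more widely open: the Pacsin2 region held a peak in 4 libraries, the Dio3 region in 3 and the Vegfa region in 1. Members with 2 or more copies had a median of 3 libraries with a peak, against 6 for members with 1 copy.

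Members lay mostly in introns and between genes. An intron here could belong to any annotated gene, and not only to the nearest protein-coding gene by which a region is named. Their summits fell in introns in 437 cases (53.9%), between genes in 343 (42.3%), in exons in 19 and in UTRs in 12. Their windows had a median GC content of 49.3%, against 50.2% in the 6071 distal regions with none of the 3 motifs, called motif-free here, 53.2% in the 1975 regions with CAGCTG alone, 49.3% in the 4933 regions with AP-1 alone and 64.7% at promoters. Other motifs were searched on both strands of the same windows. TGTGGT, the core site of RUNX factors, whose first T can be the last base of the heptamer, occurred in 37.1% of members, 34.9% of motif-free regions and 23.4% of all regions. CACCTG, an E-box outside the rule, occurred in 8.75% of members and 8.64% of all regions, and GGGCGG, the GC box of promoters, in 5.30% of members, 10.8% of motif-free, 10.3% of E-box, 5.21% of AP-1 and 28.5% of all regions. The MEF2 site occurred in 2.22% of members, 1.96% of motif-free, 1.62% of E-box, 2.09% of AP-1 and 1.45% of all regions. The M-CAT variant CATTCCA was present in 7.64% of members, 8.94% of motif-free regions and 5.72% of all regions.

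Regions on either side of the rule's limits were open about as often. Members whose nearest heptamer ended 51 to 100 bp from the summit (330 regions) had a median of 5 libraries with a peak, as had 204 regions just outside, whose nearest heptamer ended beyond 100 and up to 150 bp. The 60 members 1 to 2 kb from a start and 45 regions with the same motifs at 0.5 to 1 kb each had a median of 6.

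Most members held a peak in some libraries and not in others. The median member held a peak in 6 of 14 libraries, 178 members (21.9%) in 1 library and 117 (14.4%) in all 14. The share in all 14 was 12.7% for motif-free, 14.3% for E-box and 16.9% for AP-1 regions. With all deposited peaks in place of the equal cut, the median member had a peak in 13 libraries and 287 members (35.4%) in all 14. The members with a peak in every library and in none numbered 215 and 215 in GM no dox, 258 and 178 in GM +dox, 204 and 331 in DM no dox and 220 and 304 in DM +dox, where the DM groups have 3 libraries and the GM groups 4.

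**Figure D2:**
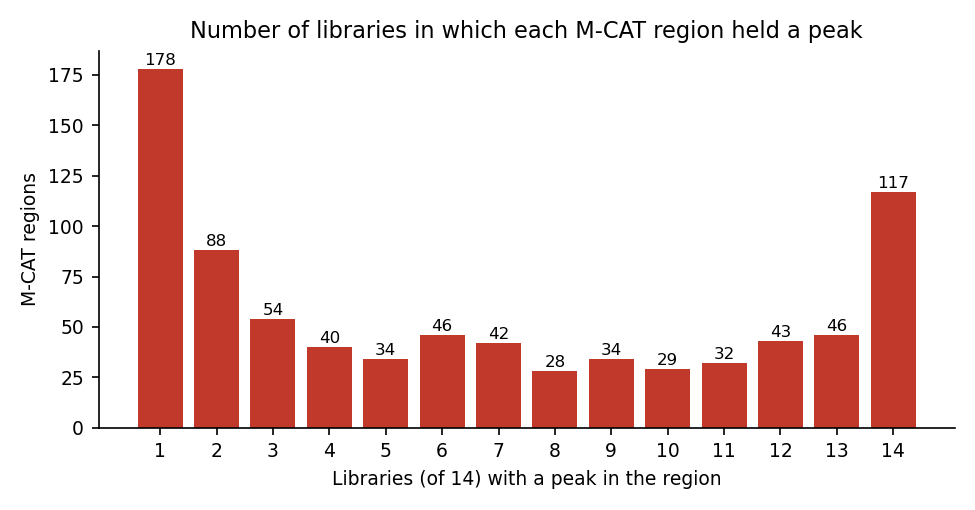
Number of M-CAT regions (vertical axis, with the count above each bar) by the number of the 14 libraries in which the region held a peak (horizontal axis). The 2 ends are the tallest, with 178 regions in 1 library and 117 in all 14.

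The strongest members present in every library had medians between 97.2 and 99.3 as a strength percentile, which places a peak's −log10 p among all distal peaks of its own library's list. They were regions nearest Vdr, the vitamin D receptor (3.85 kb from its start, median percentile 99.3), Baiap2, a regulator of actin at membrane protrusions (98.7), Ehd1, which recycles membrane proteins from endosomes (98.4), Prkci, an atypical protein kinase C of cell polarity (97.7), Myc (97.7, in an intron 711 kb from the Myc start) and Disp1, which releases Hedgehog ligands (97.2). The Utrn region, in an intron 6.08 kb from a start of the utrophin gene, held 2 copies and had percentiles from 85.9 to 98.2 over the 14 libraries. Among the other 6 the lowest single value was that of Ehd1 in GM no dox replicate 1, 77.5.

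Genes of the Hippo pathway and known YAP and TEAD targets lay beside members. A member was nearest to 9 of 22 listed YAP/TEAD target genes (40.9%), namely Myof, Amotl2, Lats2, Ccn1, Asap1, Crim1, Nt5e, Tgfb2 and Rbms3, while a member was nearest to 718 of all 21924 protein-coding genes (3.27%). Counting only genes that were nearest to some distal region, the shares were 45.0% of 20 and 11.03% of 6510. Listed genes tended to have many distal regions, so the count was also taken over regions: 10 of the 106 distal regions nearest these genes were members (9.43%), against 5.11% over all distal regions. For 27 Hippo and TEAD pathway genes the members were 6 of 64 distal regions (9.38%) beside 5 genes, Tead4, Lats2, Wwc2, Amotl1 and Amotl2. For 36 cytoskeleton, matrix and adhesion genes they were 14 of 144 (9.72%) beside 9 genes, and for 39 muscle genes 3 of 38 (7.89%) beside Myod1, Des and Tnnt2. Lats2 and Amotl2 stand on both the YAP/TEAD and the Hippo list, so their members count in both shares. All these shares are counts without a test, and being nearest to a gene does not show that a region acts on it.

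Among the YAP/TEAD targets, the regions of Lats2, Amotl2 and Myof were open in all 14 libraries. The Lats2 region, 2.25 kb from a start of the gene for the kinase that restrains YAP, had percentiles of 73.3, 96.5, 81.0 and 77.2 in GM no dox, 89.6, 96.1, 91.2 and 71.3 in GM +dox, 87.2, 69.2 and 35.2 in DM no dox, and 91.2, 86.8 and 22.1 in DM +dox. The lowest value of each DM group was that of replicate 4, and all groups overlapped. The Amotl2 region, in an intron 48.9 kb from the nearest start of the gene for a junction protein that binds YAP, had 36.3, 55.6, 79.1 and 86.1 in GM no dox, 78.7, 42.6, 80.4 and 93.9 in GM +dox, 69.9, 76.2 and 90.3 in DM no dox, and 84.8, 93.5 and 88.8 in DM +dox. The 3 DM +dox values lay in the upper range of the GM +dox values, which they overlapped. The Myof region, in an intron 18.0 kb from a start of the myoferlin gene, which acts in membrane repair and myoblast fusion, ranged from 58.1 to 92.7 over the 14 libraries. Regions of Rbms3 and Nt5e, by contrast, held peaks in 5 and 8 libraries.

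The 6 members beside Hippo and TEAD pathway genes had a median of 8.5 libraries with a peak. Of the 2 members nearest Wwc2, a relative of the Hippo activator KIBRA, the one 58.0 kb from its start held a peak in all 8 GM libraries, in DM no dox replicates 2 and 3 and in DM +dox replicate 2, and the one 16.3 kb away in 5 libraries. The Amotl1 region, 1.61 kb from a start, held a peak in GM no dox replicates 2 and 4 with percentiles of 51.2 and 22.3, in all 4 GM +dox libraries with 56.0, 51.6, 8.65 and 5.12, and in no DM library.

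Matrix and cytoskeleton genes had a median of 11.5 libraries over their 14 members, and YAP/TEAD targets 4 over their 10. Actn1, an actin cross-linker, had a member with a peak in 13 libraries (median percentile 85.9). Thbs1, which encodes thrombospondin, was 1 of 5 genes nearest to 4 members, with Mbp, Mrtfa, Myc and Ncam1. Among the Thbs1 members were regions 307 and 380 kb from its start. Members were open in 8 to 13 libraries for Thbs1, 1 to 6 for Mbp, 7 to 14 for Myc and 2 to 13 for Ncam1. Mrtfa, a serum-responsive coactivator of SRF, had its 4 members open in 10 to 14 libraries.

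The 3 members beside muscle genes were open in most but not all libraries. The Tnnt2 region, 12.8 kb from a start of the cardiac troponin T gene, had percentiles of 95.2, 89.5, 53.2 and 65.9 in GM no dox, and the cut lists held it in 3 GM +dox libraries and in 2 libraries from each of the DM groups. The Des region, 12.8 kb from the desmin gene, had percentiles of 71.7, 66.1, 20.997 and 27.4 in GM +dox and of 30.7, 17.3 and 19.1 in the 3 GM no dox libraries with a peak. No member was nearest to Myog, the Mef2 genes or a myosin heavy chain gene of the list.

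The region nearest Myod1, chr7:46337335-46337911, lay between genes 38.8 kb from the Myod1 start. It was a weak peak in GM no dox, with percentiles of 2.9, 8.3, 13.6 and 40.2, and was present in GM +dox replicates 1, 2 and 4 with 8.0, 20.1 and 52.4. It was absent from all 3 DM no dox lists and present in all 3 DM +dox lists, at 19.3, 19.5 and 19.8. The full deposited lists did hold a peak there in each DM no dox library, with −log10 p of 14.02, 8.77 and 30.4, beside 65.8, 38.7 and 48.6 in DM +dox. The DM groups did not overlap on that scale either, but −log10 p also depends on depth, which was 0.511 to 0.901 fragments per base in DM no dox and 0.732 to 1.13 in DM +dox, and the part of depth in the difference was not tested.

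**Figure D3:**
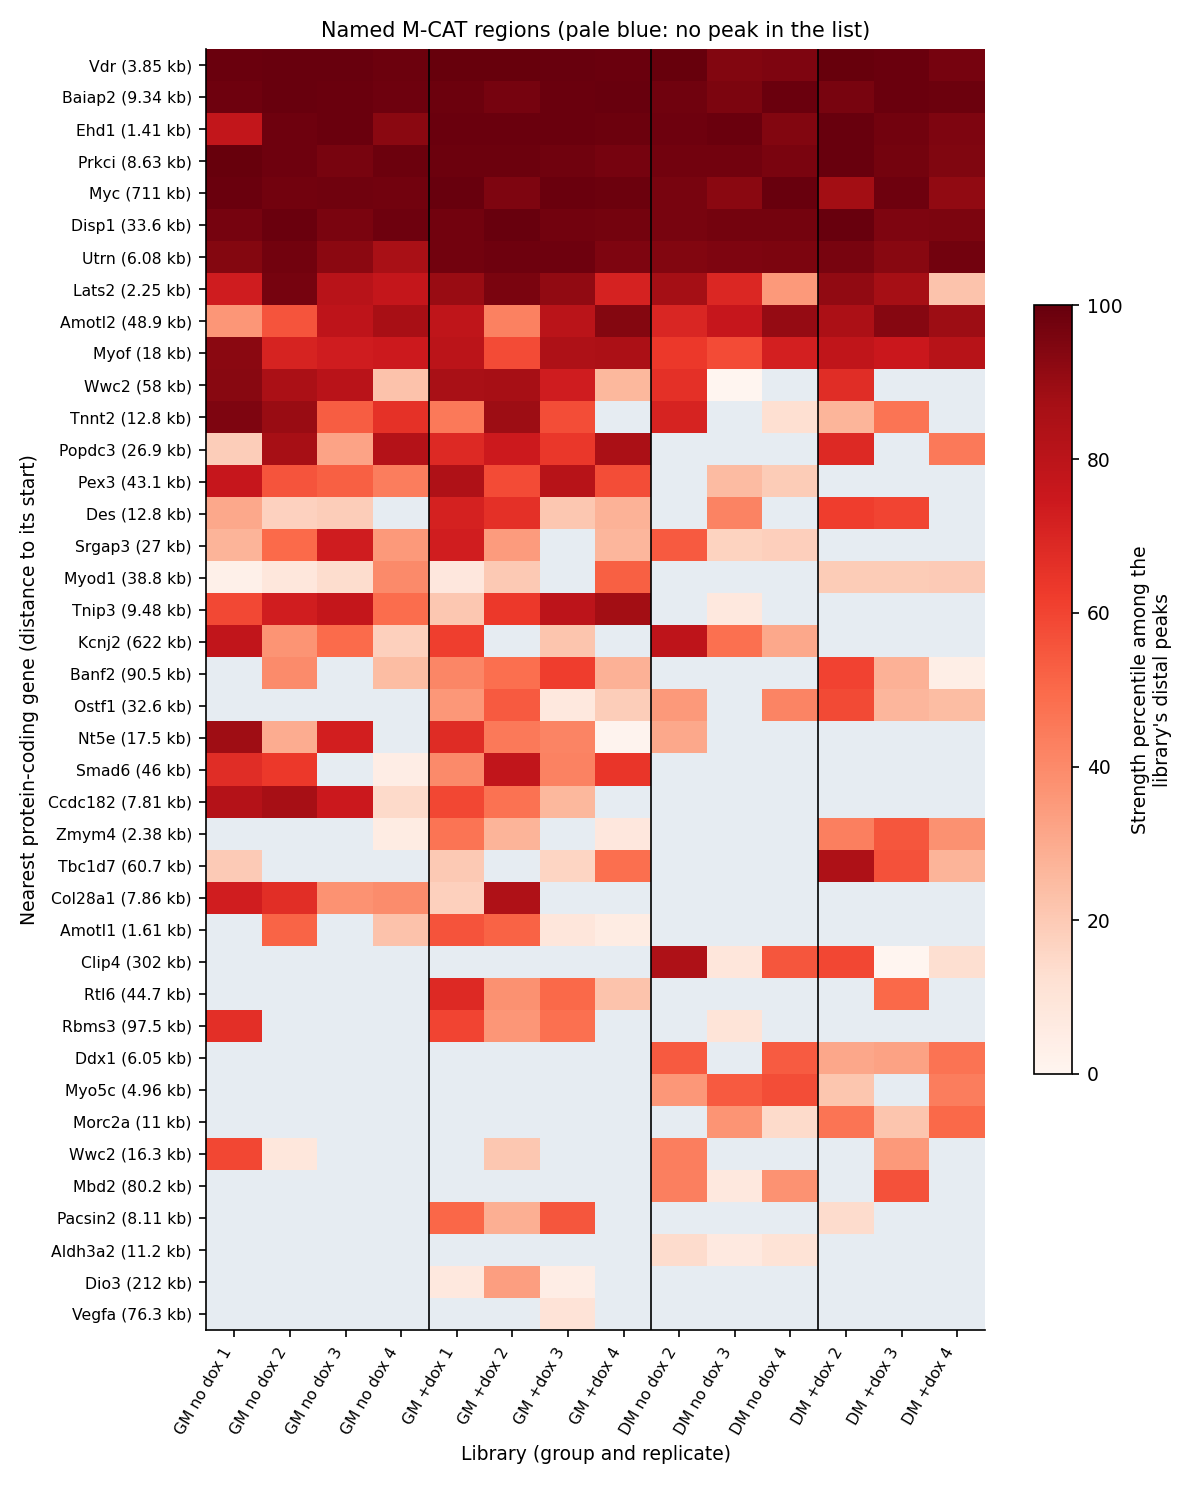
Strength percentile among the library's own distal peaks (colour) of 40 named M-CAT regions, one per row, labelled by the nearest protein-coding gene and the distance to its start, in the 14 libraries (columns, grouped by medium and dox). Pale blue marks no peak in the cut list. The 10 regions at the top held a peak in all 14 libraries, and the Myod1 row is empty in the 3 DM no dox libraries.

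The 4 comparisons asked whether MyoD1 induction or serum withdrawal shifted M-CAT regions as a set. The main measure was occupancy, the percent of the 811 members with a peak in a library's cut list. Since the libraries also differed in how many distal peaks their lists held, occupancy was also set against that of motif-free, E-box and AP-1 distal regions in the same library. The last measures were the share of a list's distal peaks with M-CAT alone and the median strength percentile of the members' peaks. Two-sided exact permutation tests over libraries were adjusted over the 24 tests (6 measures in 4 comparisons), and no adjusted p was below 0.457.

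In growth medium, M-CAT occupancy with and without MyoD1 induction differed by less than the libraries varied. Occupancy was 52.8%, 48.2%, 50.4% and 39.6% in GM no dox and 57.8%, 60.8%, 52.4% and 41.8% in GM +dox. The means were 47.7% ± 5.76 and 53.2% ± 8.36 (SD, n = 4 each), a difference of 5.46 percentage points (exact permutation p = 0.314), and the groups overlapped. It was 2.73 on omitting GM no dox replicate 4, 2.93 on omitting GM +dox replicate 2 and 9.26 on omitting GM +dox replicate 4. Each +dox value exceeded that of the same replicate number without dox, by 1.97 to 12.6 points.

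Against motif-free regions the separation was wider. M-CAT occupancy minus motif-free occupancy was −0.232, 2.17, 5.64 and −1.17 points in GM no dox and 11.8, 10.995, 11.3 and 1.36 points in GM +dox. The means were 1.60 ± 3.04 and 8.87 ± 5.02 points (SD, n = 4 each), a difference of 7.26 (exact permutation p = 0.0857, adjusted p = 0.457). In GM +dox 3 of 4 libraries lay above every GM no dox library, and replicate 4 did not. Taking numbers 1 and 2 alone gave 10.4 points and numbers 3 and 4 alone 4.08. Against AP-1 regions the 2 groups did not overlap, with −1.61, −8.37, −1.36 and −9.11 points in GM no dox and −0.593, 4.01, 3.21 and −0.669 in GM +dox. That difference was 6.60 points (exact permutation p = 0.0286, the smallest that 4 against 4 libraries allow, adjusted p = 0.457), and it was 6.70 and 6.51 points in the same subsets. Against E-box regions, which hold the CAGCTG site of MyoD1 itself, the difference was 0.317 points (8.32 ± 4.43 to 8.64 ± 7.58, SD, n = 4 each, exact permutation p = 0.886). E-box occupancy itself was 39.4% ± 3.72 without and 44.6% ± 3.79 with dox (SD, n = 4 each).

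Region by region, 268 of the 718 members with a peak in GM were found in more +dox than no dox libraries and 169 in fewer. The counts were 1461 and 1914 of 5247 for motif-free, 603 and 380 of 1535 for E-box, and 1237 and 1417 of 4388 for AP-1 regions. A region was called all-or-none when every library of one group and no library of the other held a peak. Here 2 of the 718 members (0.279%) were higher with dox, against 0.163% of all regions with a peak in GM, and 0 were lower, against 0.124%. Over all distal regions the shares were 0.241% higher and 0.146% lower. The 2 higher members were nearest Ostf1 and Rtl6, and both had deposited peaks below the cut in some GM no dox libraries. The Ostf1 region had percentiles of 35.6, 54.2, 7.44 and 19.1 in GM +dox, and peaks also in 5 of the 6 DM lists. Leaving out GM +dox replicate 4 made the higher count 13, and leaving out GM no dox replicate 1 or 3 made it 5. The lower count became 2 on leaving out GM +dox replicate 3 and 1 on leaving out GM no dox replicate 4. Fewer libraries must then agree, and the shares over all regions were not counted with a library left out.

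**Figure D4:**
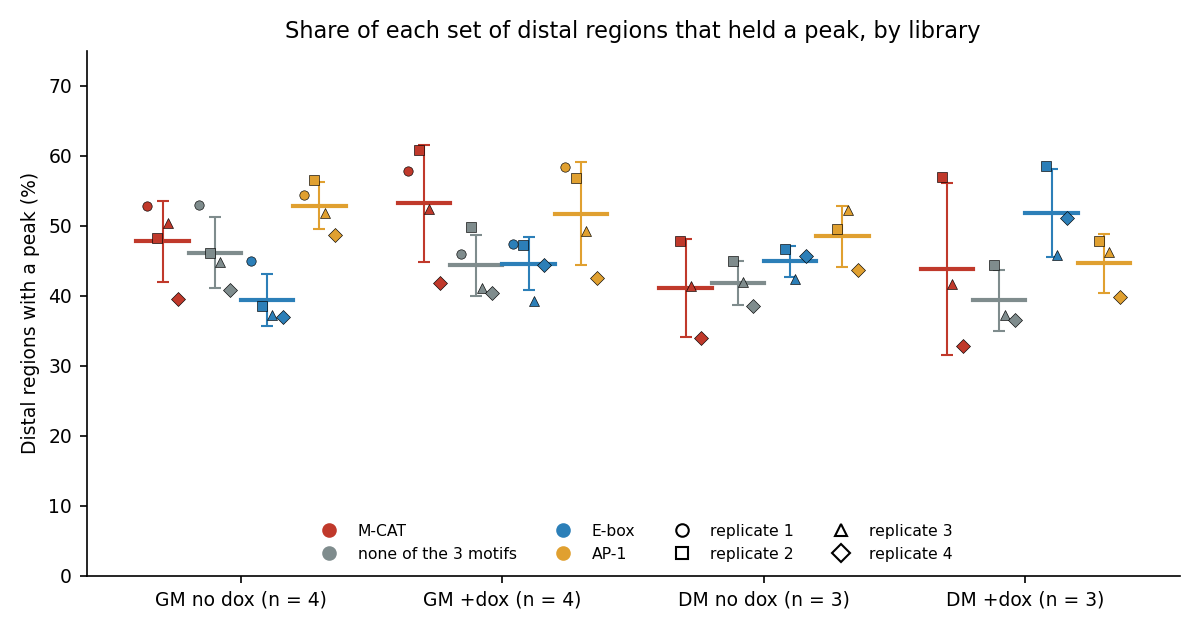
Percent of the regions in each of 4 distal sets that held a peak (vertical axis) in each library, by group (horizontal axis). Symbols are replicates, bars the mean and error bars the SD. The M-CAT values span 39.6% to 52.8% for GM no dox and 32.8% to 57.0% for DM +dox, and overlap in every comparison.

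In differentiating cells the dox groups overlapped on each of the 6 measures. Occupancy was 47.8%, 41.4% and 33.9% in DM no dox and 57.0%, 41.7% and 32.8% in DM +dox, for replicates 2, 3 and 4. The means were 41.1% ± 6.97 and 43.8% ± 12.2 (SD, n = 3 each), a difference of 2.75 points (exact permutation p = 0.8; 3 against 3 libraries cannot go below 0.1). Its sign turned on omitting DM +dox replicate 2 (−3.82) or replicate 4 of DM no dox (−0.822). Against motif-free regions the members were at −0.756 ± 3.79 without and 4.45 ± 8.15 points with dox (SD, n = 3 each), a difference of 5.20 (exact permutation p = 0.4), which was 9.65 in replicate number 2 and 2.98 within numbers 3 and 4. Motif-free occupancy itself had means of 41.8% without and 39.4% with dox. Whether the response to dox differed between the media was not tested.

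Of the 585 members with a peak in DM, 10 (1.71%) were all-or-none higher with dox, against 0.824% of all regions, and 3 (0.513%) were lower, against 0.787%. Over all distal regions the shares were 1.16% higher and 1.20% lower. For E-box regions the higher share was 1.96%. The 10 were nearest Myod1, Tbc1d7, Zmym4, Banf2, Cdc42bpa, Chga, Mbp, Gab1, St14 and Barx2, and each had a deposited peak below the cut in 1 or more DM no dox libraries. The region of Tbc1d7, a subunit of the complex that restrains mTORC1, had percentiles of 84.0, 56.5 and 27.0 in DM +dox. The 3 lower regions were nearest Kcnj2, Srgap3 and Aldh3a2, and every DM +dox library had a deposited peak in each. Their deposited −log10 p was higher with dox in replicates 2 and 3 of all 3 regions, for Aldh3a2 35.5 and 27.2 against 16.2 and 12.4, and lower in replicate 4. The cut lay at 33.7 to 54.6 in DM +dox and at 11.7 to 32.3 in DM no dox, so these regions were lower in rank and not in −log10 p in most libraries. The higher count became 19 on leaving out DM +dox replicate 4, and 17 or 16 on leaving out replicate 3 or 2 of DM no dox. The lower count became 9 when DM +dox replicate 2 was omitted and 7 for DM no dox replicate 4. It became 5 for DM +dox replicate 3 or either of the other DM no dox libraries. Here too fewer libraries must agree, and the shares over all regions were not counted.

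With serum withdrawal the mean occupancy of M-CAT regions was lower in both dox arms, and the groups overlapped. Without dox it was 47.7% ± 5.76 in GM (n = 4) and 41.1% ± 6.97 in DM (n = 3, both SD), a difference of −6.69 points (exact permutation p = 0.229). With dox it was 53.2% ± 8.36 and 43.8% ± 12.2 (SD), a difference of −9.39 points (exact permutation p = 0.229). In this comparison the replicate numbers were taken to pair the libraries. The paired differences were −3.82, −10.7 and −9.00 points, lower in 3 of 3 (exact sign-flip permutation p = 0.25, the smallest that 3 pairs allow). On the uncut lists, which differ in length and give 3189 members in place of 811, the difference with dox was −0.138 points. The smallest p of 3 against 4 libraries is 0.0571. Motif-free occupancy was also lower in DM, 41.8% against 46.1% without dox and 39.4% against 44.3% with dox. Relative to motif-free regions the differences were therefore smaller, −2.36 points without dox (exact permutation p = 0.457) and −4.42 with dox (exact permutation p = 0.514), and both were positive within numbers 1 and 2 (1.97 and 1.17) and negative within numbers 3 and 4 (−4.84 and −5.94).

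The wider contrasts in differentiation were those with E-box regions. Members exceeded E-box regions in occupancy by 7.86, 9.63, 13.2 and 2.57 points in the GM no dox libraries and stood at 1.11, −1.0 and −11.7 points in DM no dox. The groups did not overlap, and the difference was −12.2 points (exact permutation p = 0.0571, the smallest possible, adjusted p = 0.457). With dox the values were 10.49, 13.5, 13.1 and −2.55 points in GM and −1.51, −4.20 and −18.3 in DM, a difference of −16.6 points (exact permutation p = 0.114, adjusted p = 0.457), with the groups overlapping through GM +dox replicate 4. The differences were −7.64 and −13.5 points within numbers 1 and 2, and −14.2 and −16.5 within numbers 3 and 4, without and with dox. Mean E-box occupancy was 39.4% in GM and 44.9% in DM without dox, and 44.6% and 51.8% with dox, so the contrast holds a higher E-box level as well as a lower M-CAT level.

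**Figure D5:**
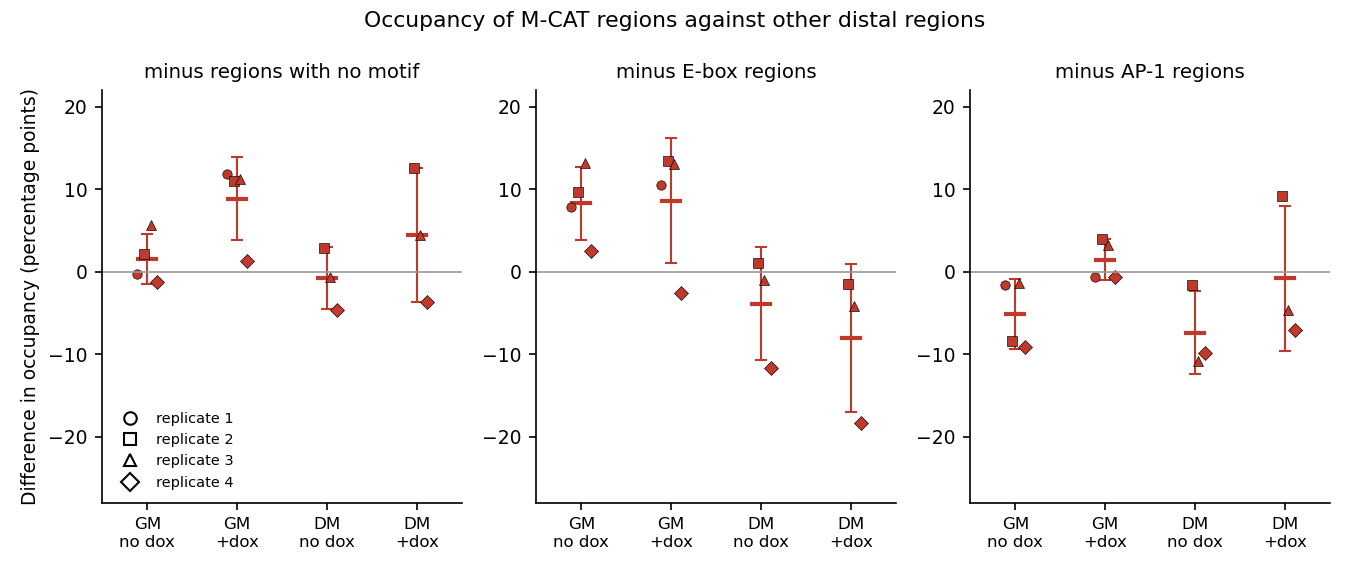
M-CAT occupancy minus the occupancy of motif-free (left), E-box (middle) and AP-1 regions (right) in percentage points (vertical axis) for each library, by group. Symbols are replicates, bars the mean and error bars the SD. The E-box panel drops from means of 8.32 and 8.64 in GM to −3.87 and −8.00 in DM.

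In the main setting, more members were all-or-none lower than higher with serum withdrawal, which not every other setting kept. Without dox, 14 of 679 members (2.06%) were all-or-none lower in DM, against 1.04% of all regions, and 5 (0.736%) were higher, against 0.984%. With dox, 16 of 701 (2.28%) were lower, against 1.10%, and 6 (0.856%) were higher, against 1.11%. The lower shares of motif-free regions were 1.66% and 1.49%, those of AP-1 regions 1.44% and 1.96%, those of E-box regions 0.998% and 0.944%, and those of all distal regions 1.44% and 1.52%. Omitting single libraries, which leaves fewer that must agree, changed these counts, and the shares over all regions were not counted there. In the no dox arm the lower count became 26 (GM replicate 4 omitted) or 23 (DM replicate 2 omitted), and the higher count 13, 8 or 10 (DM replicate 2, 3 or 4 omitted) or 8 (GM replicate 1 omitted). In the +dox arm the lower count became 37 (GM replicate 4 omitted) or 44 (DM replicate 2 omitted). The higher count became 12 (DM replicate 4 omitted) or 10 (GM replicate 4 omitted). Ranked by fold enrichment, 9 members were higher and 8 lower without dox, and 11 and 15 with dox. On the uncut lists, which differ in length and give 3189 members, 6 were higher and 7 lower without dox. With dox 49 were higher and 9 lower there. The lower count stayed the larger in both arms with shorter lists, all 16 libraries and the core CATTCC. Shares over all regions were not counted in these settings.

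Without dox the strongest lower regions were those nearest Popdc3, Ccdc182 and Col28a1. Popdc3 encodes a Popeye-domain protein of striated muscle, and its region had percentiles of 19.02, 86.7, 32.2 and 82.2 in GM no dox and 68.6, 74.5, 63.7 and 85.5 in GM +dox. It was absent from all 3 DM no dox lists and present in DM +dox replicates 2 and 4, at 68.7 and 45.3. Of the 14 regions, those of Col28a1, a collagen gene, and Pstpip1 had no deposited peak of any strength in the DM no dox libraries, the other 12 had one below the cut in at least 1 library, and the Myod1 region was among them. The strongest higher regions were nearest Clip4, Myo5c and Mbd2.

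With dox the strongest lower regions were those nearest Pex3, Tnip3 and Smad6, an inhibitor of BMP signalling. The Smad6 region had percentiles of 40.1, 77.9, 42.5 and 64.3 in GM +dox and no peak in the lists of either DM group. The list also held Amotl1 of the Hippo pathway and Nt5e, an ectonucleotidase and listed YAP/TEAD target, whose region had percentiles of 67.9, 44.9, 41.5 and 0.938 in GM +dox. Each of the 16 regions had a deposited peak below the cut in every DM +dox library, and the cut was higher there, at a −log10 p of 33.7 to 54.6, than in GM +dox, at 22.1 to 41.4. The Nt5e region had deposited −log10 p of 39.1, 30.6 and 27.1 in DM +dox, all above the 22.2 that passed the cut in GM +dox replicate 4. The strongest higher regions were nearest Clip4, Ddx1 and Morc2a, and the Clip4 region, in an intron 302 kb from that gene's start, was all-or-none higher in DM in both dox arms.

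The remaining measures also overlapped between groups or differed little. M-CAT regions made up 4.91% ± 0.454 of distal peaks in GM no dox, 5.57% ± 0.481 in GM +dox (n = 4 each), 4.45% ± 0.571 in DM no dox and 4.79% ± 0.927 in DM +dox (SD, n = 3 each). The difference with dox in GM was 0.658 points (exact permutation p = 0.114), and the other 3 had exact permutation p between 0.229 and 0.7. The median strength percentile of members' peaks was 51.8 ± 2.14, 52.2 ± 2.26, 51.7 ± 3.24 and 48.6 ± 2.55 in the same order (SD), near the middle of each list's distal peaks, with exact permutation p between 0.114 and 0.914.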

How the data were processed

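ATAC-seq libraries of C2C12 iMyoD1 cells were processed by the authors with the nf-core/atacseq pipeline against mm10, with blacklist filtering and MACS2 narrow peaks called in each library separately. The deposited lists give per peak a score, a fold enrichment (a ratio), and the −log10 of the p-value and of the q-value. The score was not used further. Each list was cut to its top 14710 peaks ranked on −log10 p, as many as GM no dox replicate 1 holds. Overlapping peaks were merged into regions and annotated with GRCm38 sequence, the assembly behind mm10, and GENCODE release M21. Background coverage was solved from fold and −log10 p for peaks with −log10 p under 30, to within 0.01, and peak lists hold no read counts. Groups were compared with two-sided exact permutation tests over libraries and Benjamini-Hochberg adjustment over 24 tests, in Python 3.11.15 with scipy 1.17.1. Each permutation p-value sets the difference in means against those from all reassignments of these libraries between the groups, which takes libraries as exchangeable.

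The functions were tested on simulated lists. The members, gene lists and comparisons were chosen with earlier results of these data known. Regions were named by rule: the all-or-none members of each comparison and direction with the highest mean −log10 p (at most 3), the 6 strongest members present in all 14 libraries, up to 5 members per gene list and the 4 members with the most copies. Cdc42bpa, Chga, Mbp, Gab1, St14, Barx2, Pstpip1, Mrtfa and Ncam1 were named after their values were seen. Replicate numbers were taken to pair libraries where every same-number correlation of deviations over union regions exceeded 0.1, which held only for differentiation with dox (0.102 to 0.286, 3 pairs). Alternatives were shorter and full lists, ranking by fold, a peak over the summit, all 16 libraries, the core CATTCC, a replicate block, leaving out each library, and regions in 2 or more libraries, the last chosen after the data were seen. Some regions that met the rule, and some sequences, are not reported here.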

Additional observations from a re-analysis of the deposited data

Results flagged for a closer look

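2 values stood apart from the rest of their group among 12 group and measure combinations checked with Dixon's criterion in the groups of 4 libraries, where chance flags about 1 in 20. In GM +dox replicate 4, M-CAT occupancy exceeded motif-free occupancy by 1.36 points, while the other 3 GM +dox libraries lay between 10.995 and 11.8. In GM +dox replicate 3, the median strength percentile of members' peaks was 48.8, while the others lay between 52.9 and 53.5. Background coverage was 0.861 fragments per base in replicate 4 and 0.866 in replicate 3, within the range of the group, 0.377 to 0.866, and its part in these values was not tested.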

How the results depend on the processing

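Over 188 tested values under other settings, 11 changed direction and 0 passed the threshold, and over 168 that left out 1 library, 16 changed direction and 0 passed it. The cause was not tested, beyond the number of members: 409 with lists of 7355 peaks, 3189 with all deposited peaks and 1679 with the core CATTCC.

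Occupancy kept its direction in the 4 comparisons under these other settings but moved in size. With all deposited peaks the dox differences became 21.5 in GM and 26.9 in DM, and differentiation with dox gave −0.138. With all 16 libraries, dox in DM gave 11.3 and the no dox arm of differentiation −16.2. Strength percentile with dox in GM became −2.73 with shorter lists and −0.0118 with ranking by fold. With differentiation under dox it became 0.688 with shorter lists, and with dox in DM 0.741 with all peaks. With differentiation without dox it became 1.44 by fold, 0.215 where a peak had to cover the summit and 0.000197 with all 16 libraries. M-CAT minus AP-1 with all peaks became 0.568 and 0.293 in differentiation without and with dox. For dox in GM it became 3.17 with all peaks, 5.39 by fold and 5.30 with the core. Their exact permutation p were 0.314, 0.143 and 0.0857. With shorter lists it was 6.87 (exact permutation p = 0.0286). For regions in 2 or more libraries it was 7.41 (exact permutation p = 0.0571). M-CAT minus E-box with dox in GM became −0.412 with the core and −0.118 for regions in 2 or more libraries, chosen after the data were seen.

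Counts of all-or-none members also moved. The share over all regions was not counted under any other setting or on leaving out a library. These counts therefore cannot be read against a background. With shorter lists they were 1 higher and 2 lower for dox in GM, 3 and 0 for dox in DM, 3 and 5 in the no dox arm of differentiation, and 2 and 5 with dox. With all deposited peaks the lists differ in length and the members number 3189. The counts were then 22 higher for dox in GM, and 165 higher and 1 lower for dox in DM. They were 7 lower for differentiation without dox, and 49 higher and 9 lower with dox. By fold they were 4 higher for dox in GM, 5 lower for dox in DM, 9 higher and 8 lower for differentiation without dox, and 11 higher with dox. With all 16 libraries, where the added lists fell short of the cut, they were 4 higher and 0 lower for dox in DM. They were 0 higher for differentiation without dox and 1 higher with dox. With the core they were 2 lower for dox in GM, 11 lower for dox in DM, 16 higher and 29 lower for differentiation without dox, and 15 and 29 with dox.

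Leaving out each library in turn, M-CAT minus E-box ran from −1.60 to 4.05 for dox in GM (negative without GM no dox replicate 4 or GM +dox replicate 1, 2 or 3) and from −8.05 to 1.01 for dox in DM, where DM +dox replicate 4 turned the sign. Strength ran from −0.664 to 1.44 for dox in GM (negative without GM no dox replicate 1 or GM +dox replicate 1 or 4) and from −1.90 to 1.28 for differentiation without dox (positive without GM no dox replicate 2 or 3 or DM no dox replicate 3 or 4). M-CAT minus AP-1 ran from −7.29 to 0.814 for differentiation with dox, the positive value without DM +dox replicate 4. Occupancy ran from 2.73 to 9.26 for dox in GM, −10.1 to −3.11 for differentiation without dox and −15.97 to −3.88 with dox. For dox in DM, it ran from −3.82 to 8.26 and the share of distal peaks from −0.126 to 0.799 (−0.126 without DM +dox replicate 2). The counts ran from 2 to 13 higher and 0 to 2 lower for dox in GM, 11 to 19 and 3 to 9 for dox in DM, 5 to 13 and 15 to 26 in the no dox arm of differentiation, and 6 to 12 and 16 to 44 with dox.

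With the replicate number as a block, each of the 24 differences kept its direction and none passed the threshold. Differentiation with dox, where the numbers were taken to pair the libraries, gave −16.0 points for M-CAT minus E-box, negative in 3 of 3 pairs. The exact sign-flip permutation p was 0.25, the smallest that 3 pairs allow. For occupancy it gave −7.85 (negative in 3 of 3). In the other comparisons the same-number correlations were also positive, but at least 1 did not exceed 0.1. They ran from 0.0855 to 0.275 for dox in GM, 0.0766 to 0.273 for dox in DM and 0.0456 to 0.226 for differentiation without dox. Equal-length lists hide differences among weaker peaks, and 3 or 4 libraries per group limit what could be detected.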
